A study of Mus musculus with 3 samples.

Results

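The genes described here are 40 coding genes of DNA replication and cell division, listed by symbol, out of 18130 coding genes with a value in the table. They comprise 21 genes of the G1 to S transition and of DNA synthesis (G1/S) and 19 genes of the later S phase, G2 and mitosis (G2/M). RNA was sequenced from 3 libraries of wild-type mouse cortical neurons under the control treatment, labelled replicates 1, 2 and 3. All 3 share this genotype and treatment, no age or culture time is given in the sources used here, and there is no second group, so no contrast between conditions can be made and the comparisons below are between genes inside a library and between the 3 libraries. Nothing in the labels says whether the libraries came from separate cultures or animals, so the spread between them may be technical.

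Cells that divide load the MCM helicase onto replication origins in G1 with the help of ORC, Cdc6 and Cdt1, start DNA synthesis under cyclin E and cyclin A with Cdk2, and enter mitosis under cyclin B with Cdk1. The factor E2F drives the transcription of the genes used at G1/S, while the MuvB complexes drive those used at G2/M by way of a short promoter element, the cell cycle genes homology region (CHR), next to CCAAT boxes bound by NF-Y. In cells that have left the cycle, pocket proteins and the DREAM complex hold both sets down. Cortical neurons are born from radial glia and intermediate progenitors and do not divide again, whereas glia and their precursors in a culture can.

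The promoters of 8 genes are shown first, chosen because each holds 1 of the motifs whose frequency differed between G1/S and G2/M genes. The letters are from RefSeq on GRCm38.p6, run 5′ to 3′ on the strand of the gene, and end just before the RefSeq start or the start of the chosen transcript, whichever lies upstream. Those of Cdc20 and Cdk1 therefore stop 9 and 26 bases short of the RefSeq start. Capitals mark 3 motifs searched on both strands: the CHR (TTTGAA or TTCGAA), the E2F site (TTTGGCGC, TTTCCCGC, TTTCGCGC or TTTGCCGC) and the CCAAT box (CCAAT). On the other strand these read TTCAAA or TTCGAA, GCGCCAAA, GCGGGAAA, GCGCGAAA or GCGGCAAA, and ATTGG. The first 4 are G2/M genes and the last 4 are G1/S genes.
Mki67, chr7:135716380-135716529, minus strand: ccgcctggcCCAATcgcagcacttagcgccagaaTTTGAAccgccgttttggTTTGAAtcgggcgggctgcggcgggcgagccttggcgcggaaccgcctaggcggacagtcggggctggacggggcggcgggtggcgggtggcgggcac
Prc1, chr7:80294326-80294475, plus strand: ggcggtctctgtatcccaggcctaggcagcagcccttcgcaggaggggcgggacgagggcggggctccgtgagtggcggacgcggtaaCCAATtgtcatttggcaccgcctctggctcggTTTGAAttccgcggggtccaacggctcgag
Cdc20, chr4:118437353-118437493, minus strand: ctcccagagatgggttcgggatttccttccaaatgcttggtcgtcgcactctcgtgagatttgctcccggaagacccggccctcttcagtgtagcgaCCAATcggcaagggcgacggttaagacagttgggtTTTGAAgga
Cdk1, chr10:69352939-69353062, minus strand: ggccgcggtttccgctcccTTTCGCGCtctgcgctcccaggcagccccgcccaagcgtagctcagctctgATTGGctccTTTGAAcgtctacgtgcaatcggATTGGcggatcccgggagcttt
Mcm6, chr1:128359706-128359855, minus strand: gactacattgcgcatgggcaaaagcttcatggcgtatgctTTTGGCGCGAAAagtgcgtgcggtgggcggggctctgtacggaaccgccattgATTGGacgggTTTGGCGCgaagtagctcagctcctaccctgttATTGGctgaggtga
Orc1, chr4:108579304-108579453, plus strand: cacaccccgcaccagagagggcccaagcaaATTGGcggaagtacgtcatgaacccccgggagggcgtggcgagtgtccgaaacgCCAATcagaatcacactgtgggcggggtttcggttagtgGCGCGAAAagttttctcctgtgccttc
Pola1, chrX:93632156-93632305, minus strand: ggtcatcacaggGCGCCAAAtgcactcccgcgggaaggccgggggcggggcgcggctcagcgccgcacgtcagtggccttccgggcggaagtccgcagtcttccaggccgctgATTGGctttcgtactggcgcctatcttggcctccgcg
Cdk2, chr10:128705052-128705201, minus strand: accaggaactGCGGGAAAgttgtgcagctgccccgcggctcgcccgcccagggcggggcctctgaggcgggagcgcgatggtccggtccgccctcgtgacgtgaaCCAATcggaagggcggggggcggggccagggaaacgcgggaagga

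In these letters Mki67 holds the CHR at 2 places, and Prc1 and Cdc20 at 1 place each with a CCAAT box upstream of it. Cdk1 holds an E2F site, a CHR and CCAAT boxes on the other strand. Mcm6 holds 3 E2F sites, of which the first and the second overlap in opposite directions, and Orc1, Pola1 and Cdk2 hold 1 E2F site each and no CHR.

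A promoter window, from 250 bases before to 50 bases after the RefSeq start, was matched for 32 of the 40 genes, 17 of them G1/S and 15 G2/M. The CHR was in 12 of the 15 G2/M windows (80%) and in 2 of the 17 G1/S windows (11.8%), those of Mcm2 and Mcm7, against 14.7% of the 13912 coding genes with a window. The E2F site showed the opposite division. It was in 10 of the 17 G1/S windows (58.8%), those of Cdc6, Cdk2, Cdt1, Mcm3, Mcm5, Mcm6, Mcm7, Orc1, Pola1 and Pold1, and in 1 of the 15 G2/M windows (6.67%), that of Cdk1, against 3.49% of all windows. CCAAT boxes were in 13 of 15 G2/M windows (86.7%) and 11 of 17 G1/S windows (64.7%), against 38% of all windows. A match describes letters in a window and does not show binding, and a missing match does not show that no site is there.

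Most CHR matches of the G2/M genes lay close to the RefSeq start, from which positions are counted. All 12 of these windows had a match between 100 bases before and 50 bases after the start, where 5.66% of all windows had a match, and the median position of their 17 matches was 15 bases before the start. In Cdc20 the match began 18 bases before the start, in Ube2c 29 and in Prc1 30, whereas in Cenpf, Ccnb2, Bub1 and Plk1 it began 3, 5, 15 and 31 bases after it. Mki67 differed in that both its matches lay farther upstream, at 116 and 98 bases before the start. The 3 G2/M windows without a match were those of Birc5, Ccnb1 and Cenpe. Among the G1/S genes, the 10 with an E2F site had a median level of 1.17 TPM. The 7 without one, Ccne1, E2f1, Mcm2, Pcna, Rrm1, Rrm2 and Tyms, had a median of 3.44 TPM, a difference given as a description only. For E2f1, Pcna and Ccnb1, and for Cdc6 and Mcm7 among those with a match, the RefSeq start lay well downstream of the chosen transcript's start. Their windows may therefore miss the promoter of the transcript measured.

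**Figure D1:**
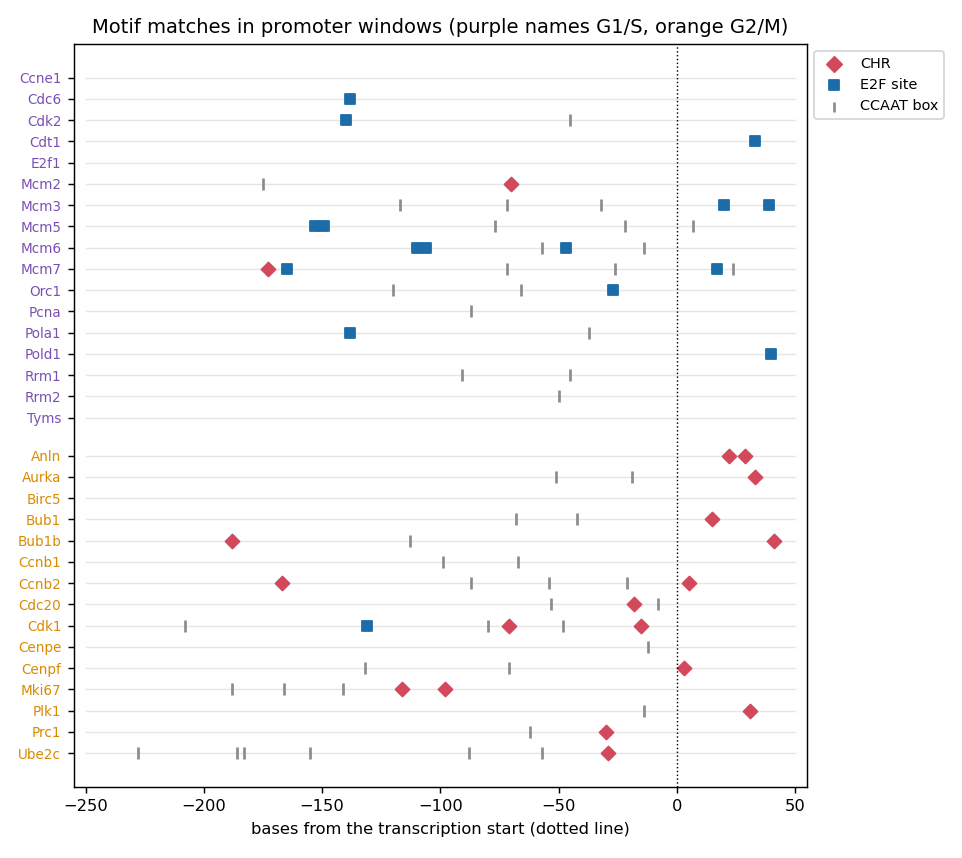
Position of each CHR, E2F and CCAAT match (symbols) in the promoter windows of 32 genes (rows; purple names G1/S, orange names G2/M), in bases from the RefSeq transcription start (dotted line). Red diamonds are in 12 of 15 G2/M rows and 2 of 17 G1/S rows, and blue squares in 10 of 17 G1/S rows and 1 of 15 G2/M rows.

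Levels are given in TPM, a read count divided by transcript length and scaled to the same total in each library, so they can be compared between genes. Each gene is represented by 1 coding transcript, the one with the highest mean TPM times length. The 40 genes were low but present in these libraries. All were above 0 in every library, on 16 to 1300 reads each, and their median was 1.38 TPM against 2.91 TPM for all coding genes. A mean of at least 1 TPM was reached by 27 of 40 (67.5%), and by 61.8% of all coding genes. This count depends on the scaling. With values rescaled so that the chosen transcripts of nuclear coding genes share 1 total it was 39 of 40 (97.5%) against 71.5% of coding genes, and with all transcripts of a gene summed 36 of 40 (90%) against 67.2%. As deposited, it was reached by 14 of 21 G1/S and 13 of 19 G2/M genes. Of the 40 genes, 9 lay above the median of all coding genes, 2 were above 5 TPM, 11 between 2 and 5, 14 between 1 and 2, 11 between 0.5 and 1, and 2 below 0.5 TPM. On the log2(TPM + 0.1) scale the median of the 40 genes was below the coding-gene median by a difference of -1.07 ± 0.12 (SD over 3 libraries), which became -0.59 with transcripts summed and -2.05 among genes of at least 1 TPM. The G1/S median exceeded the G2/M median by 0.45 ± 0.09 on the same scale, by 0.28 with a pseudocount of 1 and by 0.98 among genes of at least 1 TPM.

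**Figure D2:**
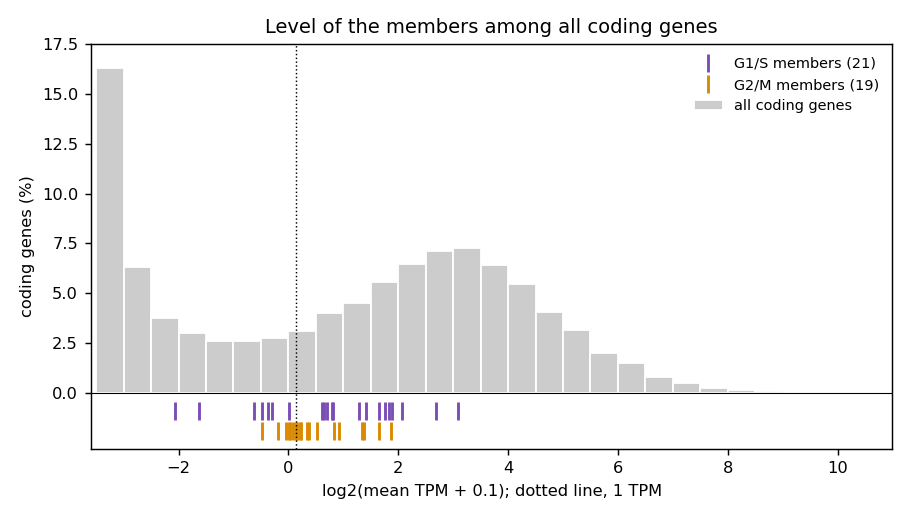
Share of all 18130 coding genes (grey bars, %) by log2(mean TPM + 0.1), with the 21 G1/S genes (purple ticks) and 19 G2/M genes (orange ticks) on the same axis, which ends at 11. The 40 genes spread around 1 TPM (dotted line), and none lies in the upper part of the coding-gene distribution above 10 TPM.

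Among the G1/S cyclins, their kinase and factor, E2f1, the activator E2F that gives the motif its name, stood at 3.80, 3.74 and 2.79 TPM in replicates 1, 2 and 3 (3.44 ± 0.57, SD, n = 3). Ccne1, a cyclin E that activates Cdk2, stood at 3.05, 3.26 and 2.82 TPM, and its paralog Ccne2 at 1.41, 1.31 and 1.66 TPM. The Ccne1 values did not overlap those of Ccne2. Cdk2, the kinase of both, stood at 0.94, 0.83 and 0.95 TPM and was the lowest of the 4. E2f1 and Ccne1 were 2 of the 4 genes with their lowest value in replicate 3.

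The 10 origin licensing genes ranged 25.5-fold. The MCM genes, which encode the 6 subunits of the replicative helicase, were all above 1 TPM, from Mcm3 at 1.53 ± 0.16 to Mcm7 at 3.58 ± 0.37 TPM. Mcm7 stood at 3.83, 3.16 and 3.75 TPM, with 72.3% of its 50-base stretches unique in the genome, Mcm4 at 3.23, 2.89 and 3.74 TPM, and Mcm2 at 2.40, 1.99 and 2.63 TPM. Mcm6 stood at 2.77, 1.88 and 2.99 TPM and Mcm5 at 1.72, 1.41 and 1.76 TPM. All 6 had their lowest value in replicate 2.

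Cdt1, Cdc6 and Orc1, which act in loading the helicase, were below all 6 MCM genes. Cdt1, which brings the helicase to the origin, stood at 0.75, 0.60 and 0.80 TPM, and Gmnn, which encodes geminin, the inhibitor of Cdt1, at 1.84, 1.56 and 1.57 TPM. Cdc6, the loading ATPase, stood at 0.22, 0.18 and 0.28 TPM on 51, 36 and 59 reads. Orc1, the largest subunit of the origin recognition complex, was the lowest of all 40 genes at 0.17, 0.12 and 0.12 TPM, on 27, 16 and 17 reads (chr4:108579454-108614833 on GRCm38, 3014 exonic bases). Cdc6 was above Orc1 in every library, and Gmnn above Cdt1.

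Orc1 stood apart from the other subunits of its complex, which are not among the 40 genes. Orc2, Orc3, Orc4, Orc5 and Orc6 were at 9.29 ± 0.44, 14.3 ± 0.8, 13.4 ± 0.9, 12.8 ± 0.9 and 15.7 ± 0.3 TPM. The highest Orc1 value, 0.17 TPM, was far below the lowest value of any of these, 8.80 TPM for Orc2 in replicate 1.

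In the DNA synthesis group, Pcna, the sliding clamp of the polymerases, was the highest of the 40 genes at 9.51, 7.12 and 8.45 TPM (8.36 ± 1.20, chr2:132249162-132253314). Its value is uncertain, because 44.9% of its 50-base stretches were unique in the genome and reads could be shared with near-identical copies. Rrm1, the large subunit of ribonucleotide reductase, stood at 6.35, 6.12 and 6.59 TPM, and Rrm2, its small subunit that is made in S phase, at 4.76, 3.50 and 4.07 TPM. Both exceeded every other gene of the group apart from Pcna in each library.

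The polymerase genes were lower. Pola1, the catalytic subunit of polymerase alpha, was nearly even at 1.39, 1.48 and 1.43 TPM, and was the 1 gene of the 40 with its lowest value in replicate 1. Pold1 and Pole, the catalytic subunits of polymerases delta and epsilon, stood at 0.76, 0.59 and 0.66 TPM and at 0.52, 0.42 and 0.70 TPM. Tyms, which makes thymidylate for DNA, stood at 0.66, 0.60 and 0.60 TPM, with 77.9% of its 50-base stretches unique. Pold1, Pole and Tyms overlapped one another.

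Of the cyclins, kinase and factor that act from S phase to mitosis, Ccna2, cyclin A, was the highest at 3.44, 3.23 and 3.92 TPM. Cdk1, the mitotic kinase, stood at 2.001, 1.39 and 1.68 TPM, and Foxm1, the transcription factor of G2/M genes, at 1.29, 1.01 and 1.31 TPM. The cyclins B were lower, with Ccnb2 at 1.11, 0.78 and 0.97 TPM and Ccnb1 at 0.79, 0.46 and 0.58 TPM. Ccnb1 is uncertain, with 36.5% of its 50-base stretches unique in the genome. All 5 genes were lowest in replicate 2, and Cdk1 and both cyclins B were highest in replicate 1.

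The mitotic kinases and checkpoint genes lay within a narrow range, from 0.87 to 1.17 TPM. Birc5, survivin of the chromosomal passenger complex, stood at 1.22, 1.01 and 1.28 TPM, Aurka, the kinase of spindle poles, at 1.27, 0.98 and 0.99 TPM, and Aurkb, the passenger complex kinase, at 1.08, 0.83 and 1.14 TPM. Plk1, a kinase of mitotic entry, varied most, at 1.06, 0.73 and 1.36 TPM. The checkpoint genes Bub1 and Bub1b stood at 0.82, 0.78 and 1.13 TPM and at 0.87, 0.76 and 0.98 TPM. All 6 were lowest in replicate 2. The ranges of most of them overlapped. The highest Bub1b value, 0.979 TPM in replicate 3, was below the lowest values of Birc5, 1.01 TPM, and Aurka, 0.981 TPM. Both gaps, which set different libraries against each other, were smaller than counting error. Inside each library, Birc5 and Aurka were above Bub1b. Birc5 (1.17 ± 0.14 TPM) differed from Bub1b (0.87 ± 0.11 TPM) by more than their summed SDs, whereas Aurka (1.08 ± 0.16 TPM) did not.

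Among the spindle, kinetochore and cytokinesis genes, Prc1, a bundler of central spindle microtubules, stood at 2.56, 2.54 and 2.37 TPM, and Tpx2, an activator of Aurka on the spindle, at 2.32, 2.30 and 2.63 TPM. Anln, anillin of the contractile ring, stood at 1.10, 0.99 and 0.91 TPM. Prc1 and Tpx2 were above the other 3 genes in each library. The kinetochore genes Cenpe and Cenpf stood at 0.79, 0.79 and 1.16 TPM and at 0.81, 0.73 and 0.79 TPM. Ube2c, the ubiquitin-conjugating partner of the anaphase-promoting complex (APC/C), stood at 3.31, 2.58 and 3.19 TPM, and Cdc20, its mitotic activator, at 1.52, 1.10 and 1.38 TPM. Mki67, the proliferation antigen Ki-67, stood at 1.72, 1.46 and 2.22 TPM on 887, 636 and 1020 reads (chr7:135689784-135716361, 10075 exonic bases).

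Ordered by the mean level of the chosen transcript, few neighbours could be told apart. Of 39 neighbouring pairs, 10 kept their order in all 3 libraries and 4 differed by more than their summed SDs. Those 4 were Pcna above Rrm1, Rrm1 above Rrm2, Pole above Cdc6 and Cdc6 above Orc1, so the separations beyond the spread lay at the top and at the bottom of the order. The order of Rrm1 and Rrm2 turned with another choice of transcript, as given with the pairs. Between Rrm2 at 4.11 and Pole at 0.54 TPM, no neighbour differed by more than its summed SDs.

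**Figure D3:**
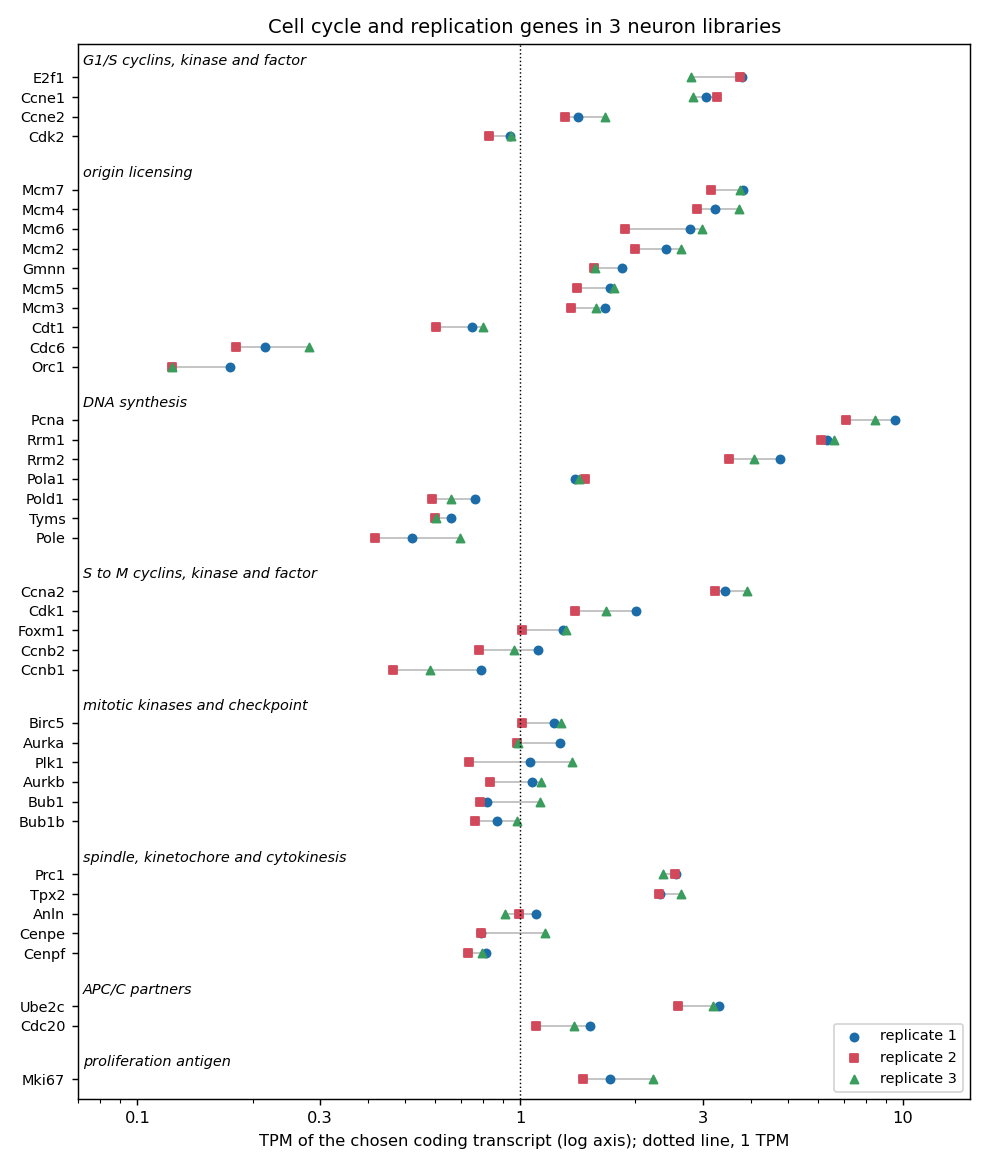
TPM (log axis) of each of the 40 genes in the 3 libraries, grouped by role, with a grey line from the lowest to the highest library. Most genes lie between 0.5 and 5 TPM, Pcna is the highest at 7.12 to 9.51 TPM, Orc1 the lowest at 0.12 to 0.17 TPM, and the replicate 2 symbol is the leftmost in 35 rows.

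Related genes were compared inside each library in 10 pairs, as differences of log2(TPM + 0.1). With 3 libraries the smallest p of the two-sided exact sign-flip permutation test is 0.25, so no pair could pass the threshold. The difference had the same sign in all 3 libraries in 7 pairs (exact permutation p = 0.25, 0.36 after Benjamini-Hochberg adjustment over the 10 pairs). Ccne1 exceeded Ccne2 by 1.01 ± 0.26, Mcm7 exceeded Mcm2 by 0.60 ± 0.09, Cdt1 was below Gmnn (-1.11 ± 0.19) and Cdk2 below Cdk1 (-0.82 ± 0.17). The means of these 4 pairs kept their direction under the alternatives run, but not their size. They ranged from 0.44 to 1.46, from 0.46 to 3.85, from -3.48 to -0.63 and from -3.62 to -0.49. The summed transcripts, which count shared reads repeatedly, gave an extreme of each range. With transcripts summed, Ccne1 minus Ccne2 was 0.44 ± 0.39 (exact permutation p = 0.50), and its sign differed between libraries. The other 3 pairs turned with the transcript taken. E2f1 exceeded Foxm1 by 1.44 ± 0.38 but by -0.055 with transcripts summed, and Ccnb1 was below Ccnb2 (-0.58 ± 0.11) but above it by 1.67 with transcripts summed. Rrm1 exceeded Rrm2 by 0.63 ± 0.20, but the difference was -0.052 with the coding transcript of highest TPM and -1.43 with transcripts summed. The sign differed between libraries for Aurka against Aurkb (0.08 ± 0.23, exact permutation p = 0.50, 0.56 adjusted), Pold1 against Pole (0.27 ± 0.30, the same p) and Bub1 against Bub1b (0.05 ± 0.13, exact permutation p = 0.75, 0.75 adjusted), and with transcripts summed these differences were -0.61, 0.76 and 0.52.

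**Figure D4:**
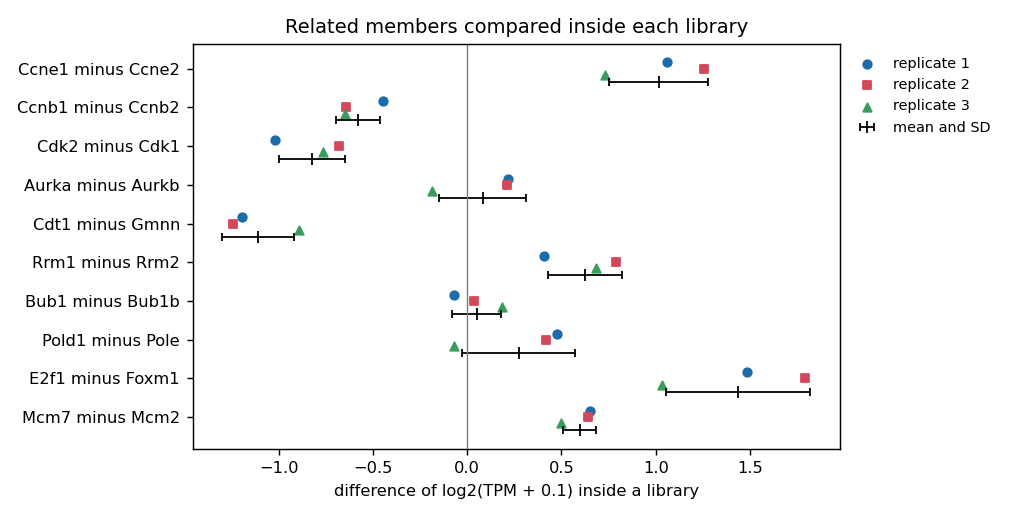
Difference of log2(TPM + 0.1) between the first and the second gene of 10 pairs in each library (symbols), with the mean and SD over 3 libraries (black). Symbols of 7 pairs lie on 1 side of 0, and those of Aurka minus Aurkb, Bub1 minus Bub1b and Pold1 minus Pole lie on both sides.

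Most of the 40 genes had their lowest value in the same library. In 35 of 40 genes the lowest value was in replicate 2, which held the lowest value in 25.5% of the coding genes of at least 1 TPM and in 29.1% of the 7852 coding genes within the range of the 40 means. Among the 27 genes of at least 1 TPM it was 22. The highest value was in replicate 1 for 18 genes, in replicate 2 for 2 and in replicate 3 for 20, against 28.2%, 40.4% and 31.4% of coding genes. The exceptions to the low replicate 2 were Ccne1, E2f1, Anln and Prc1, lowest in replicate 3, and Pola1. The 40 genes share each library, so these counts describe 3 libraries and not 40 independent outcomes.

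The size of this shift was moderate. The TPM of the 40 genes summed to 80.8, 68.6 and 79.9 in replicates 1, 2 and 3. Their reads are given as a share of the reads of coding genes whose values gave whole reads. In replicate 1 they took 12939 reads or 0.0400% (exact Poisson 95% interval 0.0394% to 0.0407%). In replicate 2 they took 9463 reads or 0.0332% (0.0325% to 0.0339%), and in replicate 3 11915 reads or 0.0425% (0.0417% to 0.0432%). The intervals cover counting error only. The median deviation of a gene from its own mean, on the log2(TPM + 0.1) scale, was 0.07, -0.17 and 0.07, against -0.01, 0.02 and -0.02 for coding genes of at least 1 TPM. The G1/S median in replicate 2 was -0.16 and the G2/M median -0.19.

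Markers of other cells varied between the same libraries. Of 8 markers of oligodendrocyte precursors, glial cells that can divide, 7 were lowest in replicate 2 and all 8 were highest in replicate 3, with sums of 69.1, 51.0 and 87.1 TPM. Pdgfra, their growth factor receptor, stood at 11.5, 4.96 and 18.4 TPM and Olig2, their lineage factor, at 15.1, 10.1 and 22.7 TPM. Replicate 2 was thus the low library of both groups of genes. It held the lowest value in 25.5% of coding genes of at least 1 TPM, and replicate 3 the highest in 31.4%. Of 6 intermediate progenitor markers, 4 were also lowest in replicate 2, with Neurog1 tied at 0 in replicate 3. The count was 3 of 10 for astrocyte markers, 1 of 9 for radial glia and progenitor markers and 0 of 9 for neuronal markers. Astrocyte markers summed to 432, 459 and 525 TPM and radial glia and progenitor markers to 769, 712 and 646 TPM, with Slc1a3 on both lists. Fabp7 alone gave 503, 415 and 340 TPM of the latter sums. The 9 radial glia and progenitor markers did not fall together, as 3 each were highest in replicates 1, 2 and 3. The part of these cell types in the result was not tested. In bulk RNA, fewer cells of a type and less RNA per cell cannot be told apart.

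**Figure D5:**
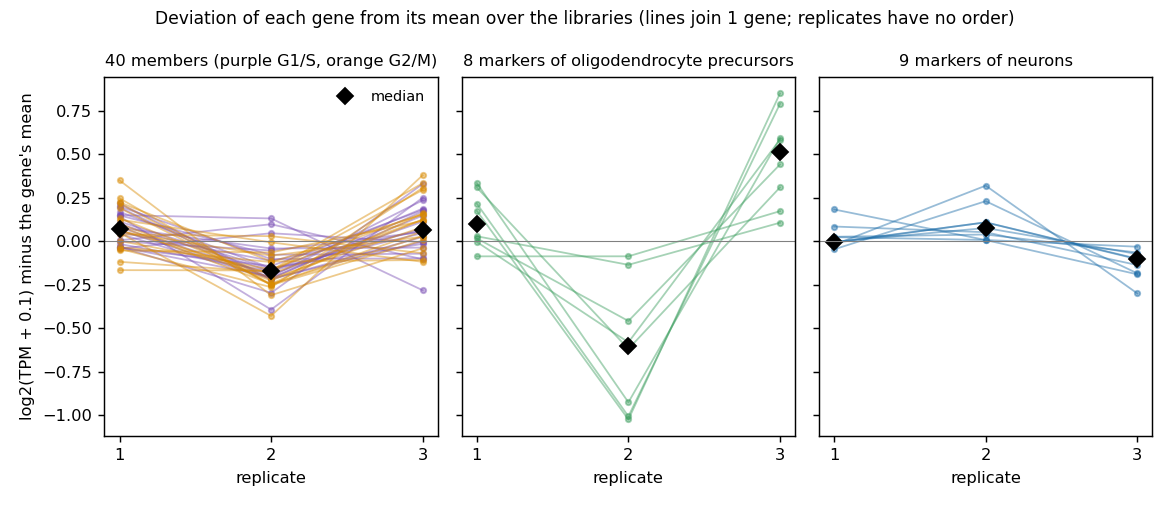
Deviation of each gene from its own mean over the 3 libraries, in log2(TPM + 0.1), for the 40 genes (left), 8 markers of oligodendrocyte precursors (middle) and 9 neuronal markers (right), with 1 line a gene and black diamonds for the medians. The 40 genes have medians of 0.07, -0.17 and 0.07 in replicates 1, 2 and 3, and the precursor markers are all highest in replicate 3.

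Markers of the labelled cell type were abundant, but not alone in that. The 9 neuronal markers were all above 1 TPM, from Elavl4 at 19.4 to Stmn2 at 687 TPM, and summed to 2324, 2373 and 2081 TPM. Genes on the lists for astrocytes (Slc1a3 184, Gjb6 0.33 TPM), radial glia (Fabp7 419, Hes5 1.09 TPM) and oligodendrocyte precursors (Olig1 34.4, Nkx2-2 0.23 TPM) were also detected. The first 2 lists share Slc1a3, and bulk RNA does not show whether radial glia or astrocytes held these transcripts. Fabp7 was above Snap25, which ranked 3 among the 9 neuronal markers at 373 TPM. Of the 6 markers of intermediate progenitors, 2 reached 1 TPM, Gadd45g being the highest at 9.67 TPM, while the defining Eomes was at 0.013 and Neurog1, the lowest, at 0.0039 TPM; the list summed to 10.7, 12.5 and 19.9 TPM. Markers of myelinating oligodendrocytes summed to 8.22, 8.15 and 8.08 TPM, and 3 of 6 reached 1 TPM (Cnp 5.68, Mobp 0.018 TPM). Those of pericytes and fibroblasts summed to 7.62, 7.73 and 7.57 TPM. Of these 8, 3 reached 1 TPM (Acta2 3.07, Dcn 2.66, Pdgfrb 1.08 TPM), and Col1a2 was the lowest at 0.073 TPM. Microglial markers summed to 2.68, 2.63 and 1.32 TPM, with 1 of 8 at 1 TPM (Aif1 1.03 TPM) and Tmem119 listed at 0. Endothelial markers summed to 0.62, 0.90 and 0.59 TPM, with none at 1 TPM (Kdr 0.37 TPM, Cldn5 listed at 0). Of all coding genes, 61.8% reached 1 TPM. Depth was 32315033, 28514403 and 28064381 reads in replicates 1, 2 and 3, over coding genes whose values gave whole reads.

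The spread between libraries was larger than counting error in most of the 40 genes. The coefficient of variation (CV) exceeded the Poisson counting CV in 34 of 40 genes (85%), against 87.6% of coding genes of at least 1 TPM and 79.4% of those between 1 and 5 TPM, so the share was near the background. The median CV was 13.4% and the median counting CV 6.70%. Mki67 had a CV 6.21 times its counting CV, Mcm6 5.26 times and Cenpe 4.24 times, whereas Tyms and Pola1 varied by 0.53 and 0.62 times theirs. Orc1, on its few reads, had a CV of 21.3% against a counting CV of 22.4%, so its differences between libraries were not detectable at this depth.

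Other genes of the same pathways were examined in 5 lists, of which 81 of 106 genes reached 1 TPM, or 102 after the rescaling to nuclear coding genes. Of all coding genes, 61.8% and 71.5% did so. The first of these shares is the background for the count of each list. Among 32 further genes of replication initiation and the fork, 27 reached 1 TPM. Orc6, Orc3 and Orc4 were the highest, and Pole2, a polymerase epsilon subunit, was the lowest at 0.43 ± 0.10 TPM. Among 32 further genes of mitosis and cytokinesis, 18 reached 1 TPM. Their highest were Bub3, a checkpoint protein, at 17.8 ± 0.3 TPM, Mad2l1, also of the checkpoint, at 6.29 ± 0.27 TPM and Racgap1, of the central spindle, at 5.60 ± 0.33 TPM, and the lowest was Cks2, a Cdk1-binding protein, at 0.25 ± 0.05 TPM. Replicate 2 held the lowest value in 26 of these 32 mitotic genes and in 19 of the 32 replication genes.

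Regulators of the cycle were higher. Their medians were 5.21 TPM for the pocket protein and DREAM genes, 14.4 TPM for the APC/C genes and 12.9 TPM for the D cyclins, their kinases and CDK inhibitors, against 4.06 TPM for the further replication genes and 1.19 TPM for the further mitotic genes. Of 17 pocket protein and DREAM genes, 13 reached 1 TPM, led by the MuvB histone-binding subunit Rbbp4 at 23.1 TPM, the E2F partner Tfdp1 at 14.3 TPM and the retinoblastoma gene Rb1 at 11.6 TPM, while the activator E2f2 was the lowest at 0.16 TPM. All 15 genes of the APC/C core with its postmitotic activator Fzr1 reached 1 TPM, from Anapc10 at 4.88 to Anapc11 at 25.1, Cdc16 at 26.0 and Anapc5 at 64.9 TPM. Fzr1 stood at 12.2, 11.4 and 10.1 TPM, above Cdc20 in every library. Of 10 D cyclins, their kinases and CDK inhibitors, 8 reached 1 TPM, led by Ccnd2 at 31.6, Cdk4 at 23.5 and the inhibitor Cdkn2d at 23.4 TPM, with Cdkn1c the lowest at 0.20 TPM. Replicate 2 held the lowest value in 6 of 17, 8 of 15 and 3 of 10 genes of these 3 lists, against 25.5% of coding genes of at least 1 TPM.

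The 40 genes have 173 transcripts in the table, all above 0. In 10 genes there was 1 transcript and in 30 there were several. Reads of overlapping transcripts were shared, as 14 transcripts of 6 genes had the same reads as another transcript of their gene, so transcript levels of 1 gene cannot be separated. In 27 genes the transcript with the highest TPM was not the one chosen, and in 16 it was noncoding. For Cdk1 it was a retained intron at 4.66 TPM against 1.69 TPM, for Birc5 a shorter coding transcript at 3.44 against 1.17 TPM, and for Tyms a transcript subject to nonsense-mediated decay at 1.64 against 0.62 TPM. Exons of other genes on the opposite strand overlapped those of Prc1 (25.1% of its exonic bases, Rccd1), Ccne2 (20.3%, Ints8), Ccna2 (17.2%, Exosc9), Orc1 (11.9%, the noncoding Gm12743) and Mcm7 (10.8%, Ap4m1). Counting kept the strands apart where this could be seen, since 30 transcripts inside an exon on the opposite strand of a gene above 10 TPM had a median of 0.049% of its level, against 31.2% for 30 on the same strand.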

How the data were processed

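The authors deposited TPM values for 84660 GENCODE vM4 transcripts in 3 libraries of total RNA (RNeasy extraction and a KAPA RNA HyperPrep library, per the labels). Reads were handled with STAR 2.5.3a, Subread 1.4.6 with its featureCounts, and FastQC 0.11.2 on mm10, as listed in the submitters' processing notes; settings are not given in the sources used here. Transcripts were matched by ID to GENCODE M21 (98.1%). A gene's value is its coding transcript with the highest mean TPM times exonic length. TPM times length came out as a whole multiple of 1 constant per library, within 0.01 reads, for 98.0% of 77590 matched transcripts above 0 and all 40 genes, which gave their reads; the recovery was tested on simulated data. No count model was run, since there is 1 group. Log2 values used a pseudocount of 0.1. Uniqueness is the share of 50-base stretches, taken every 10 bases, found at no other place on 22 chromosomes of GRCm38. Pairs were tested by an exact sign-flip permutation test. The genes and lists were chosen with earlier results of these data known; genes named in full were the 2 highest and the lowest of each role, both genes of a pair, Mki67, Pcna, and the 5 highest and 5 lowest, with the 3 highest and the lowest of a pathway list and the extremes of a marker list, and others were named after their values were seen. Promoter windows are the RefSeq windows nearest to the chosen transcript's start, at most 539 bases away. Python 3.11.15, numpy 2.4.6, pandas 2.3.3, scipy 1.17.1 and numba 0.67.0 were used.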

Additional observations from a re-analysis of the deposited data

How the results depend on the processing

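Of 169 recomputed values, 6 reversed, 12 were classed as moved in size and 151 as unchanged. A count was unchanged when it stayed within 1.5 times the reported one. The moved values include differences of medians that kept their direction, whereas no pair was classed as moved, however much its size changed. Rescaling to nuclear coding genes nevertheless gave 39 of 40 genes at 1 TPM, 20 of 21 G1/S, 19 of 19 G2/M and 102 of 106 other pathway genes, and summed transcripts 36, 19, 17 and 96. The shares of all coding genes were 71.5% after rescaling and 67.2% with transcripts summed. No pairing of samples between conditions was possible because there is 1 group. With the values of all transcripts summed, which counts shared reads repeatedly, Ccnb1 minus Ccnb2 became 1.67, Aurka minus Aurkb -0.61, Rrm1 minus Rrm2 -1.43 and E2f1 minus Foxm1 -0.055, the median of the 40 genes minus that of all coding genes -0.59, and the number of genes highest in replicate 2 fell to 1. With the coding transcript of highest TPM, Rrm1 minus Rrm2 was -0.052. At a minimum of 2 TPM the counts were 13 of 40, 9 G1/S and 4 G2/M genes. No share of all coding genes was taken at that minimum. A pseudocount of 1 gave -0.74 for the 40 genes against all coding genes and 0.28 for G1/S against G2/M, and genes of at least 1 TPM only gave -2.05 and 0.98; these 27 genes were lowest in replicate 2 in 22 cases and highest in replicate 3 in 13. The transcript with the highest TPM was not the one chosen in 17 genes when coding transcripts alone were considered. Leaving out 1 library at a time gave 24 to 28 genes at 1 TPM, and Bub1 minus Bub1b between -0.017 and 0.11, reversed without replicate 3. The alternatives for the count lowest in replicate 2 were chosen after seeing the data; they gave 32 with transcripts summed and 35 after rescaling to nuclear coding genes. Orc1 and Cdc6 rest on 16 to 59 reads a library, which limits their precision. The cause of these changes was not tested.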
